A study of Macaca mulatta with 24 samples.

Results

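NEFH and SPP1 are a pair of genes used as marks of the large projection neurons of motor cortex, and their transcripts were followed across 4 areas of the rhesus monkey neocortex. The members were every probe set (a group of short DNA probes that reads a transcript) that the array's annotation gives to NEFH or SPP1 and to no other gene. This rule gave 2 of 52865 probe sets and 2 of 14132 named genes, with MmugDNA.18337.1.S1_at for NEFH and MmuSTS.2862.1.S1_at for SPP1. Total RNA from 24 dissected tissue pieces was labelled with biotin and hybridised to 24 Affymetrix Rhesus arrays. The pieces came from M1 (primary motor cortex, its forelimb part), PMd (dorsal premotor cortex), PMv (ventral premotor cortex) and A46 (the prefrontal cortex lining the principal sulcus), from the left and the right hemisphere of 3 animals. Each area therefore had 6 arrays, and both hemispheres of an animal were averaged before areas were compared, so that n was 3 animals. The animals were untreated adolescents of 2.6 to 2.7 years that had lived in group cages, 2 males (animals 1 and 2) and 1 female (animal 3), and no other strain, genotype or treatment distinguished the groups.

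NEFH encodes the heavy subunit of the neurofilaments, the intermediate filaments that fill the axons and cell bodies of large neurons. Its long phosphorylated tail reaches out from the filament, and neurofilament content goes with axon calibre and conduction speed. In primate motor cortex, antibodies against the non-phosphorylated heavy chain stain the large pyramidal cells of layer 5, among them the Betz cells that send axons to the spinal cord. SPP1 encodes osteopontin, a secreted phosphoprotein of bone matrix and inflamed tissue that binds integrins and CD44. In macaque motor cortex SPP1 transcripts have been located in corticospinal neurons, and in brain they are also known from microglia and oligodendrocytes.

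The values are intensities after RMA (robust multi-array average), a procedure that brings all arrays to a common distribution, so each difference says how a transcript stood among the others measured on its array. Median intensity was 47.92 to 51.67 per array, and pairs of arrays correlated at 0.952 to 0.995 over the 26383 probe sets that were tested. The log2 ratio of 3' over 5' probe sets, a measure of RNA integrity, averaged 0.94 ± 0.05 in M1, 0.99 ± 0.15 in PMd, 1.10 ± 0.14 in PMv and 1.08 ± 0.11 in A46 for actin (SD, n = 3 animals). For GAPDH it averaged 0.96 ± 0.04 in M1, 0.95 ± 0.06 in PMd, 0.92 ± 0.06 in PMv and 0.84 ± 0.05 in A46 (SD, n = 3 animals). The part of RNA integrity in the area differences was not tested. Because M1, PMd, PMv and A46 were dissected as whole pieces, fewer cells of a type and less RNA per cell cannot be told apart in any value given here.

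NEFH transcript was highest in M1, intermediate in the premotor areas and lowest in A46. Its intensity in M1 was 1743 on the lowest array, 2392.5 at the median and 2855 on the highest array. In PMd the lowest, median and highest arrays had 1116, 1274.5 and 1866. In PMv they had 844.3, 1038.5 and 1120. All 6 M1 arrays therefore lay above every PMv and A46 array, and the PMd range reached into the lower end of the M1 range. In A46 the lowest, median and highest NEFH intensities were 385.4, 506.5 and 666.4, below every array of the other areas. The mean log2 intensity was 11.22 ± 0.24 in M1, 10.40 ± 0.28 in PMd, 9.95 ± 0.11 in PMv and 8.98 ± 0.26 in A46 (SD, n = 3 animals).

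SPP1 showed the same order of area means. In M1 its intensity was 1009 on the lowest array, 1307 at the median and 1869 on the highest. In PMd the lowest, median and highest arrays had 438.5, 732.45 and 850.4. In PMv they had 372, 551.85 and 772.9. The M1 arrays all stood above those of PMd and PMv, while the premotor areas overlapped each other over most of their ranges. In A46 SPP1 intensity was 230.3 on the lowest array, 269.4 at the median and 331.8 on the highest, again below every array of the other areas. The mean log2 intensity was 10.34 ± 0.31 in M1, 9.37 ± 0.37 in PMd, 9.14 ± 0.41 in PMv and 8.06 ± 0.18 in A46 (SD, n = 3 animals).

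**Figure D1:**
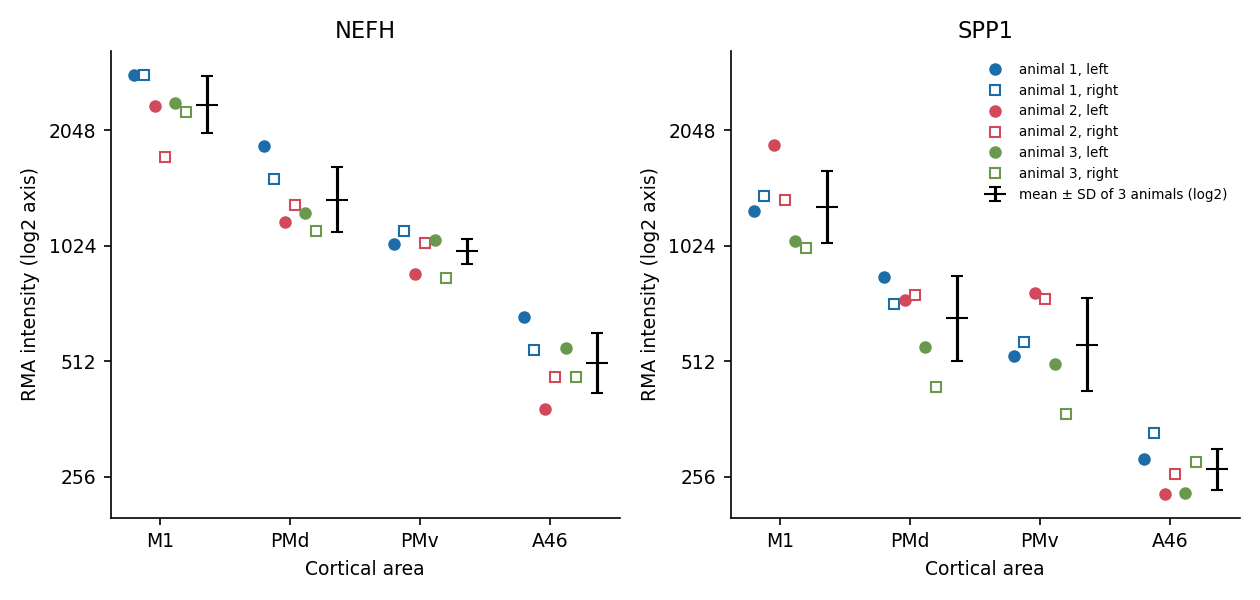
RMA intensity (vertical axis, log2 scale) of NEFH and SPP1 on the 24 arrays in M1, PMd, PMv and A46. Colours are the 3 animals, filled circles the left and open squares the right hemisphere, and black bars the mean ± SD of 3 animals on the log2 scale. For both genes all 6 M1 arrays lie above all 6 A46 arrays.

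M1 was set against A46 with limma, fitting area and animal to the 12 animal-by-area means. A probe set was called when its p, adjusted over all 26383 probe sets by the Benjamini-Hochberg method, was under 0.05. NEFH intensity in M1 was 4.72 times that in A46 (95% interval 4.19 to 5.30, adjusted p = 1.14e-08), a log2 difference of 2.24 with an SE of 0.08. SPP1 intensity in M1 was 4.84 times that in A46 (95% interval 3.95 to 5.91, adjusted p = 1.37e-06), a log2 difference of 2.27 with an SE of 0.13. Both genes were called, in a comparison that called 12.9% of probe sets, 7.49% as higher and 5.36% as lower in M1. The 6 M1 arrays did not overlap with the 6 A46 arrays for either gene, a state that 4.78% of probe sets showed in this direction. By p, NEFH stood at rank 1 and SPP1 at rank 6 of the 26383 probe sets. By size of the log2 difference, NEFH stood at rank 6 and SPP1 at rank 4. The SE of NEFH was the smaller one. The fold of M1 over A46 for NEFH was 4.72 in animal 1, 4.80 in animal 2 and 4.63 in animal 3. For SPP1 it was 4.30 in animal 1, 6.49 in animal 2 and 4.05 in animal 3. The NEFH fold was thus nearly equal in the 3 animals, and the SPP1 fold was largest in animal 2.

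The premotor areas were next set against A46. In PMd, NEFH was 2.67-fold higher (log2 difference 1.42, SE 0.08, adjusted p = 3.77e-06) and SPP1 2.48-fold higher (1.31, SE 0.13, adjusted p = 0.000584). The comparison of PMd with A46 called 1.95% of probe sets, 1.39% as higher in PMd, and 1.48% had 6 PMd arrays above all 6 A46 arrays, as NEFH and SPP1 had. In PMv, NEFH was 1.95-fold higher (log2 difference 0.97, SE 0.08, adjusted p = 0.000206) and SPP1 2.11-fold higher (1.08, SE 0.13, adjusted p = 0.00344). The comparison of PMv with A46 called 1.23% of probe sets, 0.629% as higher in PMv. NEFH and SPP1 were again without overlap, as were 0.762% of probe sets. All 6 pairs of the same animal and hemisphere were higher in PMd than in A46, and all 6 in PMv than in A46, for both genes. Without animal 2, the PMv difference did not pass for NEFH (log2 difference 0.87, adjusted p = 0.0966) or SPP1 (0.80, adjusted p = 0.222).

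M1 also stood above each premotor area. Against PMd, NEFH was 1.77-fold higher (a log2 difference of 0.82 with an SE of 0.08, adjusted p = 0.00187) and SPP1 1.95-fold higher (0.96, SE 0.13, adjusted p = 0.0188). Here 0.33% of probe sets were called, 0.171% as higher in M1. For NEFH 5 of 6 M1 arrays were above the highest PMd array, and the overlap came from the PMd piece of the left hemisphere of animal 1, at 1866, against the M1 piece of the right hemisphere of animal 2, at 1743. SPP1 had no overlap between M1 and PMd, as had 0.61% of probe sets in this direction. Within each animal and hemisphere, M1 was above PMd in 6 of 6 pairs for both genes. Without animal 2, the adjusted p was 0.138 for NEFH and 0.145 for SPP1, and a model with no term for the animal gave 0.36 for NEFH and 0.429 for SPP1. Against PMv, NEFH was 2.41-fold higher (a log2 difference of 1.27 with an SE of 0.08, adjusted p = 1.44e-05) and SPP1 2.29-fold higher (1.19, SE 0.13, adjusted p = 0.00155). That comparison called 1.87% of probe sets, 1.41% as higher in M1, and 1.27% had no overlap in this direction, as held for NEFH and SPP1.

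PMd and PMv did not pass the test against each other. The log2 difference was 0.45 for NEFH (95% interval 0.28 to 0.62, adjusted p = 0.257) and 0.23 for SPP1 (95% interval -0.06 to 0.52, adjusted p = 0.854). In this comparison 0.00758% of probe sets were called. PMd was above PMv in 6 of 6 pairs of the same animal and hemisphere for NEFH and in 5 of 6 for SPP1. Across all arrays 5 of 6 PMd arrays exceeded the highest PMv array for NEFH, and 1 of 6 did for SPP1. Without animal 3 the NEFH difference was 0.52 and passed (adjusted p = 0.00774). In the order of levels, PMd and PMv are thus the only neighbours whose difference missed the threshold in the test on all 3 animals, for both genes.

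**Figure D2:**
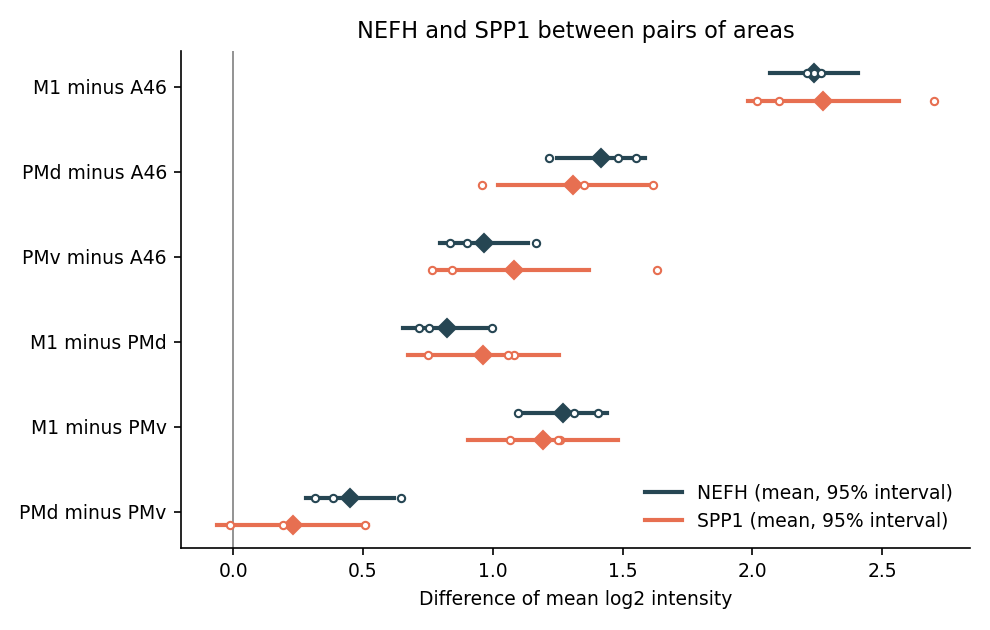
Differences of mean log2 intensity (horizontal axis) between pairs of areas for NEFH (dark) and SPP1 (orange). Diamonds are means with their 95% intervals and open circles the 3 animals. All intervals but that of SPP1 between PMd and PMv lie above 0, and the intervals are not adjusted for multiple testing.

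Taken over all 4 areas, the limma F statistic was 282 for NEFH (adjusted p = 1.20e-07) and 96.7 for SPP1 (adjusted p = 1.30e-05). The F test called 6.53% of probe sets, and by p NEFH stood at rank 1 and SPP1 at rank 8. An exact permutation test over all 13824 orders of the areas within animals gave p = 0.00174 for NEFH, the smallest p it can give, and p = 0.00347 for SPP1 (3 animals). Area held 92.7% of the variance of NEFH over the 24 arrays, the animal 4.27%, the area-by-animal term 0.837% and the hemisphere pair within it 2.20%. For SPP1 area held 88.2%, the animal 6.29%, the area-by-animal term 3.33% and the pair 2.18%. The median over the tested probe sets was 16.6% for area and 19.0% for animal, so that for both members the area held most of the variance. Only 4 probe sets, NEFH included, had an area share as high as that of NEFH, and 14, SPP1 included, one as high as that of SPP1.

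The sizes of the steps between areas were compared on the log2 scale. M1 exceeded the mean of the premotor areas by 1.05 for NEFH and 1.08 for SPP1, and the premotor mean exceeded A46 by 1.19 for NEFH and 1.20 for SPP1. The first step minus the second was -0.14 for NEFH (SE 0.11, 95% interval -0.38 to 0.10, adjusted p = 0.762) and -0.12 for SPP1 (SE 0.19, 95% interval -0.53 to 0.29, adjusted p = 0.888). Without animal 2 this difference was 0.0092 for NEFH and 0.10 for SPP1, and 0.0303% of probe sets were called in the test on 3 animals. PMd had covered 63.3% of the log2 distance between A46 and M1 for NEFH and 57.6% for SPP1, and PMv 43.2% for NEFH and 47.5% for SPP1.

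The animals differed in level but hardly in order. Averaged over its 8 arrays on the log2 scale, NEFH intensity was 1330 in animal 1, 1003 in animal 2 and 1074 in animal 3. SPP1 was at 647 in animal 1, 686 in animal 2 and 487 in animal 3, so that the animal with the highest mean was not the same for the genes. M1, PMd, PMv and A46 followed each other in this order in all 3 animals for NEFH and in animals 1 and 3 for SPP1. In animal 2 the log2 difference of SPP1 between PMd and PMv was -0.014. Whether NEFH and SPP1 differed from each other in their profile was tested on the log2 difference between them, which did not pass an exact permutation test over area orders (p = 0.458, 3 animals, test added after seeing the data). NEFH differed more than SPP1 between PMd and PMv in each animal, by 0.14, 0.40 and 0.12 on the log2 scale in animals 1, 2 and 3, and this gap had no test of its own.

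The hemispheres were compared over the 12 pairs of the same animal and area. For NEFH left minus right averaged 0.09 on the log2 scale (SE 0.06, 95% interval -0.03 to 0.21, adjusted p = 0.769), with the left higher in 8 of 12 pairs. For SPP1 it averaged 0.06 (SE 0.06, 95% interval -0.07 to 0.18, adjusted p = 0.882), with the left higher in 6 of 12 pairs. limma called 0 probe sets (0%) in this comparison, and 2022 had an unadjusted p under 0.05. The largest gap for both genes was in the M1 of animal 2, where NEFH had 2374 on the left and 1743 on the right, and SPP1 1869 on the left and 1350 on the right. In A46 the SPP1 intensities of animals 1, 2 and 3 were 284.4, 230.3 and 232.5 on the left and 331.8, 259.8 and 279 on the right. SPP1 was thus higher on the right in 3 of 3 animals in A46 (left minus right -0.22 ± 0.04, SD, n = 3 animals), while the left was higher in 2 of 3 animals in M1, PMd and PMv. The test of whether the hemisphere difference depended on area did not pass for SPP1 (F 2.92, adjusted p = 0.999) or NEFH (F 0.42, adjusted p = 0.999), and called 0 probe sets with 1113 under an unadjusted p of 0.05.

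The relatives of NEFH were set between M1 and A46 in the same fit, which called 12.9% of probe sets, 7.49% as higher and 5.36% as lower in M1, and the differences of those that were tested were smaller than that of NEFH. Of 5 neurofilament and neuronal intermediate filament subunits, NEFH and peripherin (PRPH) were tested. NEFL, NEFM and INA are not the single gene symbol of any probe set, though a probe set without a single symbol may still read them. PRPH, a filament protein of peripheral and some central neurons, had 63.5 to 73.65 in M1 and 64.61 to 82.25 in A46 (log2 difference -0.05, adjusted p = 0.767). Of 7 tested kinases and phosphatases that act on neurofilament tails, 1 fell and 0 rose in M1 relative to A46, with a median log2 difference of -0.093, against -0.0012 over all genes. The lower one was MAPK3, an ERK kinase, with 894.1 to 1031 in M1 and 1094 to 1287 in A46 (-0.30, SE 0.05, adjusted p = 0.0022). The glycogen synthase kinases GSK3A (-0.14, adjusted p = 0.114) and GSK3B (0.15, adjusted p = 0.221) and the CDK5 activator CDK5R1 (-0.12, adjusted p = 0.337) did not pass. CDK5 itself is not the single symbol of any probe set.

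Of 10 other axonal cytoskeleton genes 3 rose and 0 fell in M1 relative to A46, with a median of -0.064. In this comparison 7.49% of probe sets were called as higher and 5.36% as lower in M1, with a median of -0.0012 over all genes. Without animal 3, 3 genes of the list rose and 2 fell. SPTBN1, a beta-spectrin of the membrane skeleton, had 248.9 to 396.3 in M1 and 113 to 162.2 in A46, without overlap (log2 difference 1.23, SE 0.12, adjusted p = 3.64e-05). It was the single gene of this list that passed in PMd (0.69, adjusted p = 0.0114) and PMv (0.55, adjusted p = 0.0416) against A46, as NEFH did. Over all probe sets, 1.39% were called as higher in PMd and 0.629% in PMv. ANK3, the ankyrin that organises the axon initial segment, was higher by 0.36 (adjusted p = 0.00879), with the same sign in 3 of its 4 probe sets. STMN2, a regulator of microtubules in growing axons, was higher by 0.25 (adjusted p = 0.0135). The kinesin heavy chain KIF5C, a motor of axonal transport, did not pass (-0.17, adjusted p = 0.153). Without animal 2, MAPK3 (adjusted p = 0.149), ANK3 (0.316) and STMN2 (0.255) did not pass, nor did STMN2 without animal 1 (0.148).

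The partners of osteopontin that were tested had smaller differences than SPP1, and their counts stand beside the same 12.9% called over all probe sets. Of 6 tested receptor subunits 1 rose and 0 fell in M1 relative to A46, with a median of -0.012, and 1 rose and 1 fell without animal 3. ITGB1, the integrin subunit shared by many matrix receptors, had 77.55 to 118.9 in M1 and 69.38 to 82.68 in A46 (log2 difference 0.33, SE 0.09, adjusted p = 0.0363), and did not pass without animal 2 (adjusted p = 0.595). ITGAV (-0.20, adjusted p = 0.077), ITGB3 (-0.11, adjusted p = 0.449) and ITGB5 (0.14, adjusted p = 0.315), which together form osteopontin-binding integrins, did not pass. The receptor CD44 lay under the intensity filter. Of the 5 genes of the SIBLING family of bone and tooth matrix proteins, SPP1 and MEPE were tested. MEPE had 113.8 to 204.4 in M1 and 105.1 to 195.6 in A46 (0.09, adjusted p = 0.592), and was higher in PMd than in A46 (0.40, adjusted p = 0.0385). Of 5 tested enzymes that phosphorylate, cleave or cross-link osteopontin, 0 were called, with a median of -0.047. Among them FAM20C, the secretory pathway kinase, differed by -0.09 (adjusted p = 0.57), MMP7, a protease, by -0.05 (adjusted p = 0.829), F2, prothrombin, by -0.03 (adjusted p = 0.852) and TGM2, a transglutaminase, by -0.11 (adjusted p = 0.341).

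**Figure D3:**
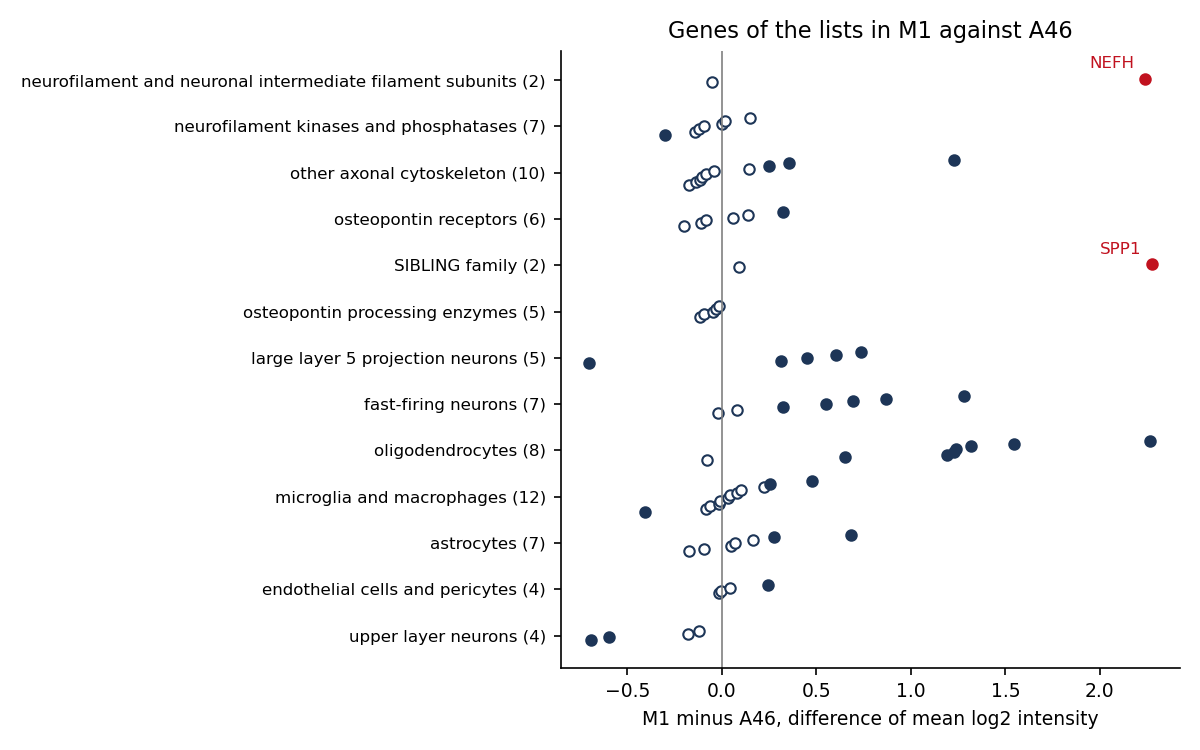
Difference of mean log2 intensity between M1 and A46 (horizontal axis) for each tested gene of the lists named at left, with the number of genes tested in parentheses. Filled points passed the limma test at an adjusted p under 0.05, open points did not, and NEFH and SPP1 are red. Of the other genes plotted, the oligodendrocyte gene UGT8 lies nearest to the members, at 2.26.

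The label of large projection neurons was checked against other genes of those cells. Of 5 tested genes of large layer 5 projection neurons, 4 rose and 1 fell in M1 relative to A46, with a median log2 difference of 0.45. That comparison called 7.49% of probe sets as higher and 5.36% as lower in M1, with a median of -0.0012 over all genes. VAMP1, a synaptic vesicle protein, had 476.1 to 660.9 in M1 and 306.7 to 350.1 in A46 (0.74, SE 0.07, adjusted p = 3.73e-05). FEZF2, the transcription factor that specifies subcortical projection neurons, was higher by 0.61 (adjusted p = 0.000642) and ETV1, a layer 5 transcription factor, by 0.45 (adjusted p = 0.00301, same sign in 2 of 3 probe sets). CRYM, a thyroid hormone binding protein used as a mark of mouse corticospinal neurons, was the lower one, with 590.4 to 789.5 in M1 and 975.3 to 1339 in A46 (-0.70, SE 0.08, adjusted p = 7.1e-05). Both the members and most of this list thus stood higher in M1 than in A46, and CRYM went the other way. Against A46, 3 of the 5 were higher and 1 lower in PMd, where 1.95% of probe sets were called. In PMv 1 was higher and 1 lower against A46, where 1.23% were called. M1 had 0 of 5 called against PMd, where 0.33% were, although both members passed. Against PMv, 2 were higher and 1 lower in M1, where 1.87% were called. LDB2, SCN4B, ESRRG and CHRM2 are not the single symbol of any probe set, and BCL11B was under the filter. In M1 against A46 without animal 2, 1 gene of the list was higher and 1 lower, and FEZF2 (adjusted p = 0.0578) and ETV1 (0.168) did not pass.

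Most genes of fast-firing neurons, which include parvalbumin interneurons as well as large pyramidal cells, moved with NEFH and SPP1. Of 7 tested, 5 rose and 0 fell in M1 relative to A46, with a median of 0.55, and 4 were higher without animal 2. Over all probe sets, 7.49% were called as higher in M1. SCN8A, a sodium channel named after its values were seen, was higher in M1 in 1 of 3 animals. Over the 12 animal-by-area means with each animal's mean removed, its r was -0.014 with NEFH and -0.082 with SPP1. PVALB, the calcium buffer parvalbumin, had 448.5 to 725.3 in M1 and 195.4 to 322.5 in A46 (log2 difference 1.28, SE 0.10, adjusted p = 1.03e-05). The sodium channel SCN1A (0.87, adjusted p = 0.000363) and the potassium channels KCNA1 (0.69, adjusted p = 0.00082) and KCNC1 (0.55, adjusted p = 0.000329) were higher too. Against A46, 3 of these 7 genes were higher in PMd, where 1.39% of probe sets were, and 0 of 7 in PMv, where 0.629% were. Between M1 and PMd 0 of 7 were called, where 0.33% of probe sets were. In M1 against PMv 4 of 7 were higher, where 1.41% were.

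Most genes of oligodendrocytes, a cell type that itself can express SPP1, moved with both members. Of 8 tested, 7 rose and 0 fell in M1 relative to A46, with a median of 1.23, and 6 were higher without animal 2. Over all probe sets, 7.49% were called as higher in M1. The exception was CNP, a myelin gene named after its values were seen, which was higher in M1 in 1 of 3 animals. Over the 12 animal-by-area means with each animal's mean removed, its r was -0.174 with NEFH and -0.245 with SPP1. UGT8, which makes the myelin lipid galactosylceramide, had 860.7 to 1609 in M1 and 156.5 to 357 in A46 (log2 difference 2.26, SE 0.20, adjusted p = 2.5e-05), close to the differences of SPP1 and NEFH. SOX10, the oligodendrocyte transcription factor, was higher by 1.23 (adjusted p = 5.11e-05), PLLP, a myelin membrane protein, by 1.55 (adjusted p = 6.8e-05) and ENPP2, autotaxin, by 1.32 (adjusted p = 7.43e-05). The summed intensity of the 8 genes was 19484.8 to 26662.5 on M1 arrays, 13712.7 to 18518.7 in PMd, 14513.4 to 19213.8 in PMv and 10154.1 to 13699.1 in A46. None of the 8 genes was at 0 on any array, and neither was any other probe set. Against A46, 7 of the 8 genes were higher in PMd, where 1.39% of probe sets were, and 4 of 8 in PMv, where 0.629% were. Against PMv, 5 of 8 were higher in M1, where 1.41% of probe sets were. Between M1 and PMd 0 of 8 were called, where 0.33% of probe sets were, although both members passed. The part of the oligodendrocyte share of the tissue in the NEFH and SPP1 differences was not tested.

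Microglia are the other glial cells known to make osteopontin. Of 12 tested microglia and macrophage genes 2 rose and 1 fell in M1 relative to A46, with a median of 0.038, in a comparison that called 12.9% of probe sets. Their summed intensity was 2423.57 to 2714.92 in M1 and 2510.34 to 2771.38 in A46. None of them was at 0 on any array, which held for every probe set. The part of microglia in the SPP1 difference was not tested. The immune adaptor TYROBP (0.48, adjusted p = 0.0124) and the integrin ITGAM (0.26, adjusted p = 0.0157) were higher, the lysosomal protein CD68 was lower (-0.41, adjusted p = 0.00665), and the purinergic receptor P2RY12 did not pass (0.22, adjusted p = 0.243). CD68 weighed heavily in the summed intensity, with 602.1 to 847.7 in M1 and 841.5 to 1005 in A46, while 7 of the 12 genes had a difference above 0. Without animal 2, and also without animal 1, 0 of the 12 passed. Of 7 astrocyte genes 2 were higher, S100B by 0.69 (adjusted p = 0.00518) and ALDOC by 0.27 (adjusted p = 0.00523), with a median of 0.071. Of 4 endothelial genes the glucose transporter SLC2A1 alone was higher (0.24, adjusted p = 0.0306), with a median of 0.020. Of 4 upper layer neuron genes 2 were lower in M1, CUX2 (-0.69, adjusted p = 0.000394) and RORB (-0.60, adjusted p = 0.00489), with a median of -0.39. Without animal 2 the adjusted p was 0.128 for S100B, 0.221 for ALDOC, 0.394 for SLC2A1 and 0.139 for RORB, and for SLC2A1 it was 0.0881 without animal 1 and 0.0508 without animal 3.

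NEFH and SPP1 were also compared with each other, with the area means kept and then removed. Over the 12 animal-by-area means, each animal's mean removed and the area differences still in, they correlated at r = 0.986 (Spearman rho 0.958). With the area means removed as well, r was 0.731 (rho 0.797). It was 0.709 without the 2 points farthest out in NEFH and 0.669 without the 2 farthest out in SPP1. Over the 12 left minus right differences r was 0.496 (rho 0.469). It was 0.503 when the 2 points farthest out in NEFH were left out, and 0.138 when the 2 farthest out in SPP1 were. On these 12 differences 8065 of 26382 other probe sets had an r with NEFH as high, and 1521 had one with SPP1 as high. All these points share the 3 animals and the same arrays, and genes on an array share its normalization, so the values are descriptions.

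Each gene was then set against the marker lists over those remaining differences, a choice of points added after seeing the data. Over the 12 left minus right differences SPP1 correlated with the mean of the 8 oligodendrocyte genes at r = 0.92 (rho 0.888, and 0.964 without the 2 farthest points), with all 8 genes above 0. For NEFH and the same list r was 0.334 (rho 0.413, and 0.472 without the 2 farthest points). NEFH correlated with the mean of the fast-firing genes at 0.793 (rho 0.727, and 0.685 without the 2 farthest points), led by PVALB at 0.869. With the large layer 5 genes its r was 0.798 (rho 0.727, and 0.799 without the 2 farthest points). For SPP1 r was 0.23 (rho 0.105) with the fast-firing genes and 0.568 (rho 0.378) with the layer 5 genes. Without the 2 farthest points it was 0.237 with the fast-firing genes and 0.569 with the layer 5 genes. The median over all tested probe sets, each taken singly and not as a list mean, was 0.239 for NEFH and 0.043 for SPP1. Taken singly too, the genes of the lists had a median r with NEFH of 0.589 (fast-firing), 0.531 (layer 5) and 0.355 (oligodendrocyte). With SPP1 it was 0.125 (fast-firing), 0.386 (layer 5) and 0.821 (oligodendrocyte). With area and animal means removed instead, r with the oligodendrocyte genes was 0.901 for SPP1 and 0.55 for NEFH, with the layer 5 genes 0.488 for SPP1 and 0.642 for NEFH, and with the fast-firing genes 0.106 for SPP1 and 0.409 for NEFH. Without the 2 farthest points r with the oligodendrocyte genes became 0.803 for SPP1 and 0.376 for NEFH. With the layer 5 genes it became 0.35 for SPP1 and 0.433 for NEFH, and with the fast-firing genes -0.192 for SPP1 and 0.249 for NEFH. Single genes of these lists did not all follow the list means. With area and animal means removed and all 12 points kept, r with FEZF2 was 0.877 for SPP1 and 0.683 for NEFH, and with PVALB 0.861 for SPP1 and 0.837 for NEFH. NEFH also correlated over the left minus right differences with the kinase and phosphatase list (0.66, against 0.163 for SPP1) and the other axonal cytoskeleton list (0.644, against 0.515 for SPP1). With the microglia list r was -0.05 for SPP1 and -0.26 for NEFH over the left minus right differences. With area and animal means removed instead, it was 0.275 for SPP1, with 9 of 12 genes above 0, and -0.24 for NEFH, with 4 of 12. Without the 2 farthest points that value for SPP1 was -0.123. Whether the genes differ in these correlations was not tested.

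**Figure D4:**
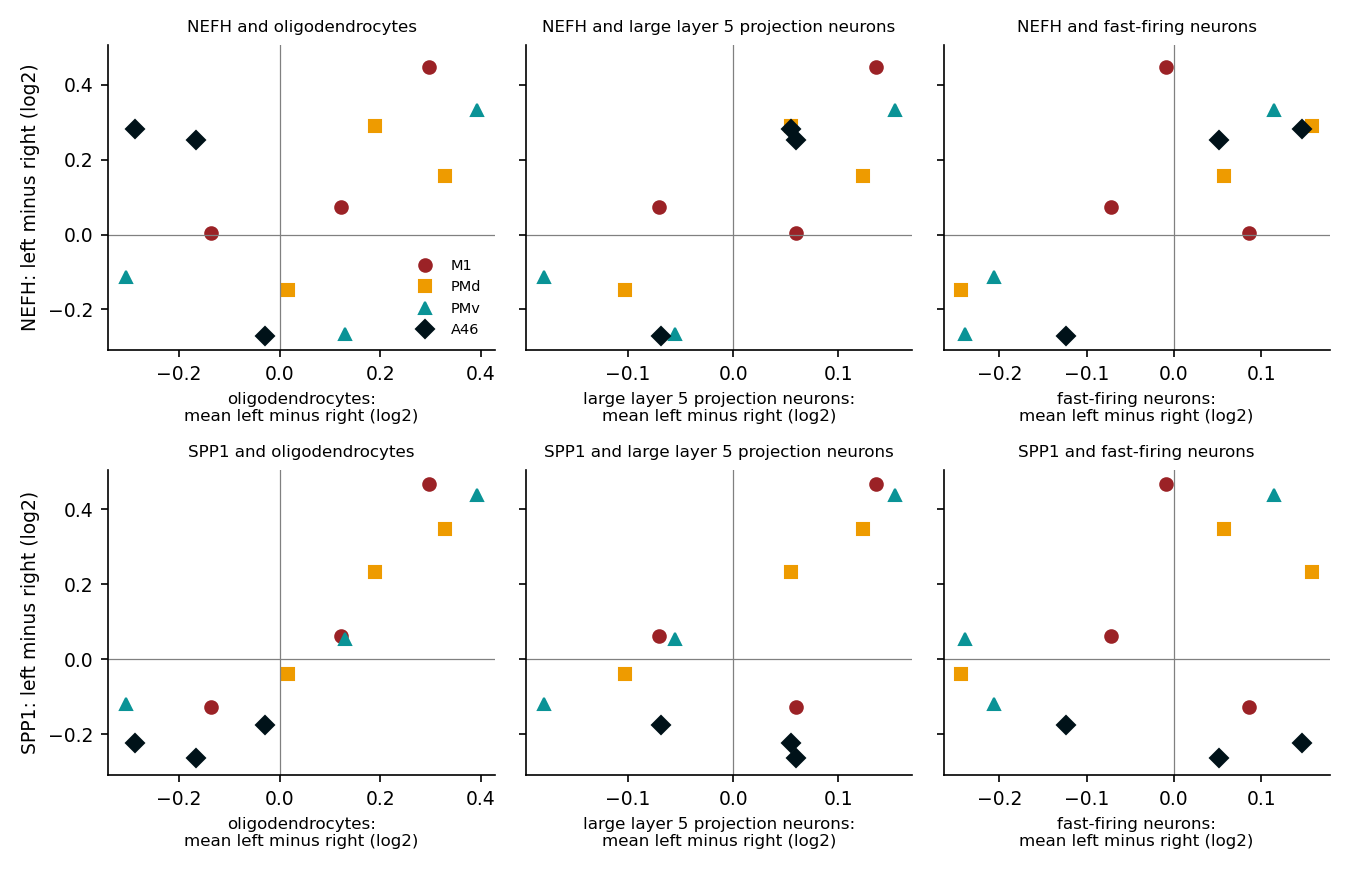
Left minus right difference in log2 intensity of NEFH (upper row) and SPP1 (lower row) against the mean difference of the oligodendrocyte, large layer 5 and fast-firing lists (columns), for the 12 pairs of the same animal and area. Symbols are the 4 areas. SPP1 lies near a line against the oligodendrocyte list (r = 0.92), NEFH does not (r = 0.334), and all 3 SPP1 pairs of A46 lie below 0.

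The genes with the most similar profiles were ranked by Pearson's r over the 12 animal-by-area means with each animal's mean removed, 1 probe set for each of 10043 genes. Nearest to NEFH were RFTN2, a lipid-raft protein (r = 0.996), BSG, the membrane glycoprotein basigin (0.995), and DDX24, an RNA helicase (0.994). They were followed by the methionine sulfoxide reductase MSRB1 (0.989), the dUTPase DUT (0.989), SPP1 (0.986), the myelin-related gene BCAS1 (0.982) and the kinase MAST4 (0.982). RFTN2 had 530.1 to 736 in M1, 219.6 to 379.3 in PMd, 174.7 to 308.1 in PMv and 110.2 to 144.8 in A46, the same order as NEFH. The other probe sets of DDX24 did not follow, since 1 of 3 was higher in M1 than in A46, and 2 of 3 were for BSG.

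Nearest to SPP1 were the peroxisomal carrier SLC25A17 (r = 0.994), the gap junction protein GJB1 of myelinating cells (0.990), the kynurenine monooxygenase KMO (0.989) and BCAS1 (0.988). RFTN2 (0.986), NEFH (0.986), UGT8 (0.986) and HAPLN2, a matrix link protein of the nodes of Ranvier (0.985), completed the 8. GJB1 had 254.7 to 453.7 in M1, 137.6 to 242.8 in PMd, 118.1 to 214.5 in PMv and 95.49 to 125.7 in A46, a range that in M1 did not meet the other areas. Each member was thus 6th in the other's list, and 2 of 8 genes, RFTN2 and BCAS1, stood in both lists. Ranked by Spearman's rho 4 of the 8 genes stayed for NEFH and 2 of 8 for SPP1, and over 24 uncentred arrays 3 of 8 for NEFH and 2 of 8 for SPP1. The members left each other's lists under both measures. By rho SPP1 was 43rd for NEFH and NEFH 68th for SPP1. Over the uncentred arrays SPP1 was 9th for NEFH and NEFH 41st for SPP1.

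**Figure D5:**
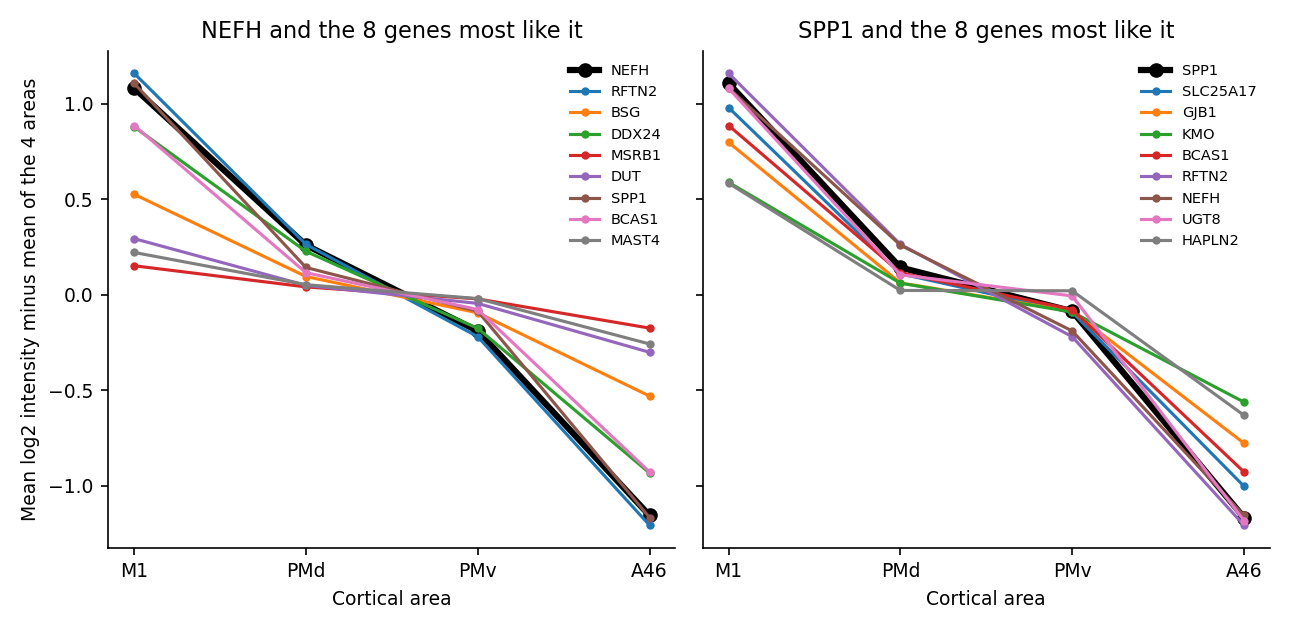
Mean log2 intensity minus the mean of the 4 areas (vertical axis) in M1, PMd, PMv and A46 for NEFH (left) and SPP1 (right), in black, with the 8 genes of most similar profile in colour. RFTN2 and UGT8 fall about as steeply as the members, while MSRB1, DUT and MAST4 follow the same order over a smaller range.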

How the data were processed

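The deposited values are intensities on a linear scale, 1 per probe set and array, which the authors obtained with RMA, per the submitters' processing notes. Its version, the set of arrays processed together and a genome build were not given in the sources used here. Each array was assigned to area, hemisphere and animal from its title. After removal of 99 control probe sets, values were taken to log2, and the 26383 of 52766 probe sets with a mean at or above the median (intensity 49.3) were tested with limma 3.58.1 (R 4.3.3, eBayes with an intensity trend). Areas were compared on 12 animal-by-area means with area and animal as terms, and hemispheres on 24 arrays with the animal-by-area pair as a block. The fit was also run on simulated arrays of independent noise. These held no animal effect, so that run does not bear on the animal term. Animal numbers pair the samples because the labels give the same animal. Deviations from the area means correlated at 0.207 to 0.85 over 18 pairs of the same animal (median 0.606) and at -0.561 to 0.0654 over 36 pairs of different animals. Precision is set by the 3 animals, since arrays give no depth of reads.

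The members and all gene lists were chosen with earlier results of these data known, so they give no independent support. Named genes were the members, the 8 genes most like each, and up to 4 genes of each list with the smallest p between M1 and A46. A gene was read by its tested probe set of highest mean. Of the probe sets, 24956 had a single gene symbol, 361 several and 27449 none, by an annotation that can be old. Alternatives were no animal term, a pseudocount of 16, quantile normalization, median centring, no intensity filter, no intensity trend, each hemisphere alone, all 24 arrays with an estimated correlation, and leaving out each animal. Sequences of the members were not used here.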

Additional observations from a re-analysis of the deposited data

How the results depend on the processing

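Of 12 alternatives each, the M1 against A46 differences passed in all for NEFH (2.19 to 2.28) and SPP1 (2.06 to 2.45). With no replicate block (animal left out), these did not pass: SPP1 in PMd against A46 (1.31, adjusted p = 0.0763), NEFH (0.97, 0.108) and SPP1 (1.08, 0.195) in PMv against A46, NEFH (0.82, 0.36) and SPP1 (0.96, 0.429) in M1 against PMd, and SPP1 in M1 against PMv (1.19, 0.0959). M1 against PMd did not pass for SPP1 with median-centred arrays (0.97, adjusted p = 0.0676), nor on left hemispheres for NEFH (0.86, 0.0809) or SPP1 (0.94, 0.188). The step difference changed sign on right hemispheres for SPP1 (0.079). On right hemispheres M1 against PMd passed for NEFH (adjusted p = 0.00865) and SPP1 (0.0119). The causes of these changes were not tested.

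Leaving out each animal in turn, PMv against A46 ranged from 0.87 to 1.03 for NEFH and from 0.80 to 1.24 for SPP1, and M1 against PMd from 0.73 to 0.88 for NEFH and from 0.91 to 1.07 for SPP1, the fits without animal 2 not passing. PMd against PMv ranged from 0.35 to 0.52 for NEFH. The step difference ranged from -0.26 to 0.0092 for NEFH and from -0.32 to 0.10 for SPP1. Of 226 alternative values for the members, 209 kept direction and side of the threshold.

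Counts of called probe sets ran from 403 without animal 2 to 5410 without animal 3 for M1 against A46 (3391), and were 1056 with no replicate block. Over all alternatives they ran from 8 to 3055 for PMd against A46 (515), 1 to 7010 for PMv against A46 (324), 0 to 433 for M1 against PMd (87), 4 to 3814 for M1 against PMv (494), 0 to 1398 for PMd against PMv (2), 0 to 2003 for the step (8) and 129 to 7754 for the F test (1723). Left against right called 38 on per-animal means, and its dependence on area 4 without animal 3.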

Other observations

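POU3F1, a transcription factor of layer 5 neurons, ran against both members between hemispheres. Over the 12 left minus right differences it correlated at -0.694 with NEFH and -0.758 with SPP1, although it was higher in M1 than in A46 (log2 difference 0.31, adjusted p = 0.0108, but 0.0781 without animal 1 and 0.371 without animal 2), as the members were. The mean of the 4 upper layer genes correlated at -0.745 with SPP1 (rho -0.678, and -0.587 without the 2 farthest points), with CUX2, a transcription factor of upper layer neurons, at -0.855, and at -0.026 with NEFH. These points share 3 animals and their arrays, the genes were picked after seeing their values, and no test was made of the difference between the members.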
